A study of Mus musculus with 15 samples.

Results

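Cholesterol and fatty acid synthesis in the mouse kidney was followed through 34 genes, which were chosen by name as enzymes and regulators of these pathways. The genes were chosen with earlier results of these data known. They comprised 18 enzymes of the sterol pathway, 5 sterol regulators and transport proteins, and 11 enzymes of fatty acid synthesis, desaturation and elongation. All 34 were among the 12372 genes tested, out of 13940 genes with an annotated transcript in every mouse.

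RNA-seq was performed on renal tissue of 15 wild-type male C57BL/6 mice, bought at 8 weeks of age, with 5 mice per group. The RNA was depleted of rRNA, and the paper also describes a poly(A) mRNA isolation step. The Control group was infused with saline, the Ang II group with angiotensin II at 500 ng/kg/min, a peptide hormone that raises blood pressure, and the Ang II + QDG group with the same dose of Ang II, each for 28 days by subcutaneous osmotic pump. The Ang II + QDG mice also received Qingda granule (QDG), a Chinese herbal formula, at 1.145 g/kg/day into the stomach, and the other 2 groups received water by the same route. The comparisons address which transcripts change with Ang II and which of them change when QDG is added.

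Cells build cholesterol from acetyl-CoA through mevalonate, isoprenoid units, squalene and lanosterol. When sterol in the endoplasmic reticulum runs low, SCAP escorts the transcription factor SREBP-2, the product of Srebf2, to the Golgi, where it is cut and released to switch on the genes of this pathway, while the INSIG proteins hold SCAP back. Fatty acid synthesis starts from the same acetyl-CoA, which ATP citrate lyase makes from citrate in the cytosol.

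The values are FPKM, fragments per kilobase of transcript scaled to sequencing depth, summed over the annotated transcripts of a gene, so that levels can be compared between genes. The constant that turns FPKM into whole reads implied between 75030000 and 81330000 reads for the Control libraries, between 70700000 and 79290000 for Ang II, and between 68920000 and 76140000 for Ang II + QDG. All 5 markers of the proximal tubule were listed, and they summed to 2738.6 to 2878.5 FPKM in Control, 2885.7 to 4085.7 in Ang II, and with QDG added 2734.2 to 3437.4. Most of each sum was Slc34a1, the phosphate transporter, at 1923.4 to 2072.0 FPKM in Control and 2113.3 to 3064.6 in Ang II. The endocytic receptor genes Lrp2 (202.0 to 236.6 and 188.3 to 236.1 FPKM) and Cubn (66.4 to 80.3 and 59.4 to 72.7) overlapped between these groups, with lower lowest and highest values in Ang II. Adipocyte markers, of which 6 of 7 were listed, summed to 157.1 FPKM in Ang II mouse 1, 81.9 in Control mouse 2 and 48.1 in Ang II + QDG mouse 5, against a lowest sum of 0.272 in Control, 0.0444 in Ang II, and with QDG added 6.36. The mitochondrial genome took 18.5% to 20.7% of the FPKM in Control, 15.4% to 16% in Ang II, and with QDG added 16.9% to 19.8%. All 3 podocyte markers were listed, and they summed to 75.1 to 83.4 FPKM in Control, 101.4 to 127.2 in Ang II, and with QDG added 98.0 to 124.8. The part of these values in the results below was not tested, except where values without the 3 adipocyte-rich mice or with the adipocyte level as a covariate are given, or after scaling to the FPKM outside the mitochondrial genome. In bulk tissue, fewer cells of a type and less RNA per cell cannot be told apart.

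Promoter sequences are shown for 4 sterol enzymes whose levels are described below, because SREBP-2 acts at the promoters of this pathway. Each is the 250 bases before a RefSeq start site on GRCm38.p6, with matches to CCAAT (either strand) in capitals, and in Hmgcs1 also the single match to the sterol response motif TCACNCCAC.
Hmgcs1 (chr13:119690101-119690350, plus strand): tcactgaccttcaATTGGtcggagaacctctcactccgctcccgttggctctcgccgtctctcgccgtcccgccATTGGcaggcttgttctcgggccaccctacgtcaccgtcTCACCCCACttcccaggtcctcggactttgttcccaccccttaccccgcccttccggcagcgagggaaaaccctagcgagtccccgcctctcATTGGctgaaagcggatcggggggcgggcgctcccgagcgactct
Idi1 (chr13:8885356-8885605, plus strand): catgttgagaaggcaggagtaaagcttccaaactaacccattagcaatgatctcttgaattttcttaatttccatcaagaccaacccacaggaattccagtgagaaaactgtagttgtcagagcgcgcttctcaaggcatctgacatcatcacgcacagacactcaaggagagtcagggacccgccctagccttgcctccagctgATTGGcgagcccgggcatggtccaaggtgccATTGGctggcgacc
Msmo1 (chr8:64733579-64733828, minus strand): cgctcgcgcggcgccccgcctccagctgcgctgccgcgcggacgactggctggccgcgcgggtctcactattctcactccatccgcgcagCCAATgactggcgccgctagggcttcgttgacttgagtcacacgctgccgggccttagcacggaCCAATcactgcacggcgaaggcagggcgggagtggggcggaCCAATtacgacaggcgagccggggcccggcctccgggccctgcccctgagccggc
Nsdhl (chrX:72918271-72918520, plus strand): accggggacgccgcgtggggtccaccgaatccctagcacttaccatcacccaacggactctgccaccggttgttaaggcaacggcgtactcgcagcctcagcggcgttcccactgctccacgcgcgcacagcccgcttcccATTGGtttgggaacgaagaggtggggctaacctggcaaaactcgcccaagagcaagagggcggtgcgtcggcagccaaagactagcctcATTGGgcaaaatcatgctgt

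Promoters of 27 of the 34 genes were found in the RefSeq table, as windows from 250 bases before to 50 after the start site. Entries on chromosome 18, where Stard4 lies, had been left out of the table. CCAAT, on either strand, was present in 22 of the 27 (81.5%), against 41.06% of the 27025 genes in the table. It was present in 14 of 15 sterol enzymes and in 5 of 8 fatty acid enzymes. The sterol response motif TCACNCCAC was present in 1 of the 27, Hmgcs1, against 1.44% of all genes, and the E-box CACGTG in 6 (22.2%), against 8.09%. Genes with several start sites had several windows, any of which could count, and none of the 3 motifs contains another. The matches are a description of these letters.

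In Ang II vs. Control, 7 of the 34 genes rose at an adjusted p under 0.05 and 0 fell, where 4.95% of all genes tested rose and 0.994% fell. Over all genes that was 612 higher and 123 lower, and quantile normalization gave 227 and 268, median scaling 200 and 270. The 7 were Pmvk, Fdps, Lss, Msmo1 and Nsdhl among the sterol enzymes, the regulator Srebf2, and Acly. They amounted to 5 of 18 sterol enzymes, 1 of 5 regulators and 1 of 11 fatty acid enzymes. The median log2 fold change was 0.412 for the sterol enzymes, 0.095 for the fatty acid enzymes and −0.049 for the regulators, beside 0.083 for all genes tested.

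In Ang II + QDG vs. Ang II, 4 of the 34 genes fell, Idi1, Fdps, Nsdhl and Acly, and 0 rose, where 1.29% of all genes fell and 0.525% rose. Over all genes that was 65 higher and 159 lower, and quantile normalization gave 97 and 97, median scaling 72 and 112. The median log2 fold change was −0.313 for the sterol enzymes and −0.17 for the fatty acid enzymes, beside −0.019 for all genes tested. The Ang II mice enter both comparisons, so the rise in the first and the fall in the second share their values.

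**Figure D1:**
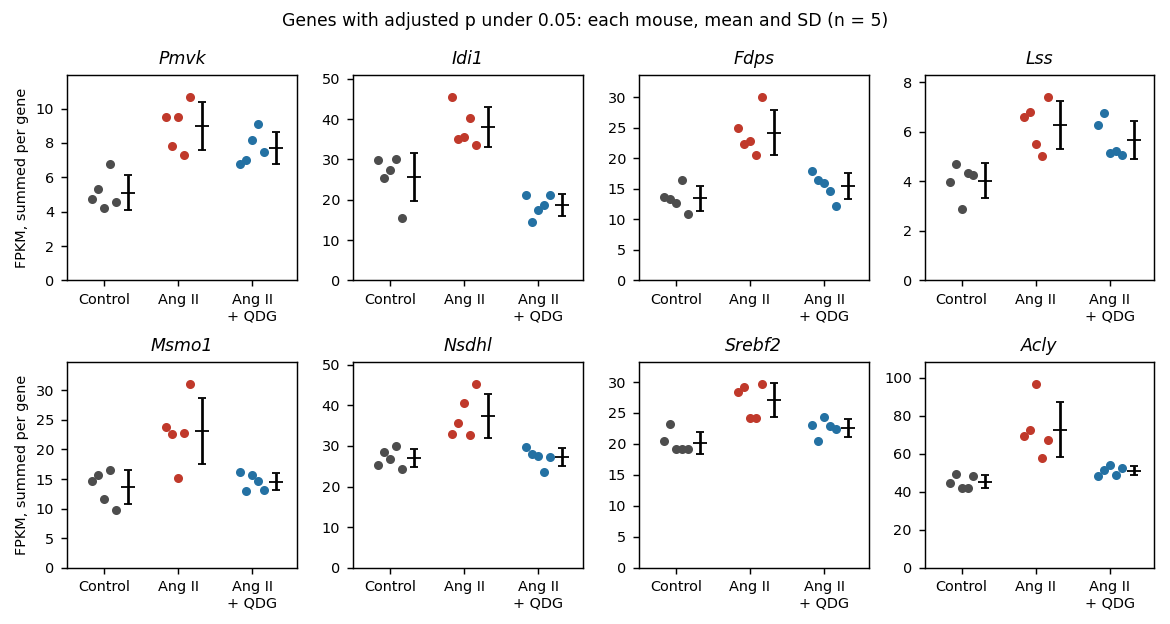
Summed FPKM (y axis, from 0) of the 8 genes with an adjusted p under 0.05 in at least 1 comparison, in each of 5 mice per group (x axis), with the mean and SD as a dash and bars beside the points. Every Ang II mouse lies above every Control mouse in 7 of the 8 genes, with Msmo1 the exception.

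Phosphomevalonate kinase (Pmvk, ENSMUSG00000027952, chromosome 3, 89454541 to 89469013), which carries mevalonate towards the isoprenoid unit, stood at 4.73, 5.32, 4.22, 6.76 and 4.54 FPKM in the 5 Control mice. The Ang II mice had 9.54, 7.8, 9.52, 7.31 and 10.7 FPKM. With QDG the values were 6.78, 6.98, 8.2, 9.09 and 7.5 FPKM. Both Ang II groups lay wholly above Control, and they overlapped each other. All log2 fold changes are differences in log2(FPKM + 1), tested by limma. Pmvk rose by 0.71 (standard error 0.12, adjusted p = 0.00841) in Ang II vs. Control. Between Ang II + QDG and Ang II the difference was −0.19 (95% interval −0.46 to 0.07, adjusted p = 0.481). Against Control the Ang II + QDG mice differed by 0.52 (adjusted p = 0.0992), which did not pass.

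Isopentenyl-diphosphate isomerase (Idi1, ENSMUSG00000058258, chromosome 13, 8885501 to 8892451) interconverts the pair of building blocks from which isoprenoids are joined. Its FPKM was 29.9, 25.3, 27.3, 30.1 and 15.5 in Control and 45.6, 35.2, 35.5, 40.3 and 33.5 in Ang II. The Ang II + QDG mice had 21.1, 14.6, 17.5, 18.8 and 21.2 FPKM. Every Ang II + QDG mouse was below every Ang II mouse, and 4 of 5 Control mice were above all of the Ang II + QDG mice. Idi1 fell by 0.99 on the log2 scale in Ang II + QDG vs. Ang II (standard error 0.16, adjusted p = 0.0141), which was the fold change farthest from 0 among the 34 genes in that comparison. Its difference of 0.58 in Ang II vs. Control just missed the threshold (adjusted p = 0.0512).

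Farnesyl diphosphate synthase (Fdps, ENSMUSG00000059743, chromosome 3, 89093588 to 89101959) makes the precursor of both squalene and the prenyl groups attached to proteins. In Control it stood at 13.7, 13.4, 12.7, 16.5 and 10.9 FPKM. Ang II mice stood at 25.0, 22.3, 22.8, 20.6 and 30.1, and Ang II + QDG mice at 17.9, 16.5, 16, 14.6 and 12.2. The Ang II mice lay above all mice of the other groups, which overlapped each other. Fdps rose by 0.80 (standard error 0.12, adjusted p = 0.00593) in Ang II vs. Control, the widest rise among the 34 genes, and fell by 0.61 on the log2 scale (standard error 0.12, adjusted p = 0.0255) when QDG was added. Its exons share 1124 bases with the overlapping gene Gm43738 on the same strand, so reads may be split between them.

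Lanosterol synthase (Lss, ENSMUSG00000033105, chromosome 10, 76531588 to 76557138), which closes the sterol rings, was lower in level than Fdps. It had 3.97, 4.71, 2.88, 4.33 and 4.24 FPKM in Control, 6.61, 6.8, 5.51, 5.03 and 7.42 in Ang II, and with QDG added 6.27, 6.74, 5.13, 5.21 and 5.07. As for Pmvk, both Ang II groups lay above Control without overlap and overlapped each other. The log2 fold change was 0.54 (adjusted p = 0.024) in Ang II vs. Control. It was −0.12 (95% interval −0.38 to 0.15, adjusted p = 0.686) between the 2 Ang II groups, and 0.42 (adjusted p = 0.153) for Ang II + QDG against Control.

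Msmo1 and Nsdhl act in turn to remove methyl groups from the sterol nucleus. Methylsterol monooxygenase (Msmo1, ENSMUSG00000031604, chromosome 8, 64718139 to 64733792) had 14.7, 15.7, 11.7, 16.6 and 9.68 FPKM in Control, 23.8, 22.6, 15.2, 22.8 and 31.1 in Ang II, and with QDG added 16.2, 13.0, 15.6, 14.6 and 13.2. Ang II mouse 3, at 15.2 FPKM, fell within the range of both other groups. Msmo1 rose by 0.71 (standard error 0.17, adjusted p = 0.0274) in Ang II vs. Control, and its −0.60 with QDG added did not pass (adjusted p = 0.0811). The sterol dehydrogenase Nsdhl (ENSMUSG00000031349, chromosome X, 72918557 to 72958514) had 25.4, 28.5, 26.9, 29.9 and 24.4 FPKM in Control, 32.9, 35.7, 40.5, 32.6 and 45.3 in Ang II, and with QDG added 29.7, 28.0, 27.5, 23.7 and 27.3. The Ang II mice were all above the rest, while Control and Ang II + QDG covered nearly the same range. Nsdhl rose by 0.45 (standard error 0.09, adjusted p = 0.0166) in Ang II vs. Control and fell by 0.44 on the log2 scale (standard error 0.09, adjusted p = 0.0341) when QDG was added.

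Srebf2 (ENSMUSG00000022463, chromosome 15, 82147181 to 82205379), which encodes the transcription factor of the pathway, had 20.4, 23.2, 19.1, 19.1 and 19.2 FPKM in Control, 28.4, 29.2, 24.2, 24.2 and 29.7 in Ang II, and with QDG added 23.1, 20.4, 24.3, 22.9 and 22.4. The Ang II mice were above all Control mice, and Ang II + QDG mouse 3 reached the lowest Ang II values. The gene rose by 0.41 (standard error 0.08, adjusted p = 0.0121) in Ang II vs. Control, and its −0.25 with QDG added did not pass (adjusted p = 0.119). Scap (ENSMUSG00000032485), the escort of its protein, was at 22.3, 25.4, 26.2, 24.5 and 28.7 FPKM in Control, 26.8, 24.3, 21.7, 26.9 and 22.9 in Ang II, and with QDG added 25.1, 23.8, 25.6, 21.5 and 26.6. The groups overlapped throughout, and the log2 fold change in Ang II vs. Control was −0.05 (95% interval −0.22 to 0.12). Insig1, Insig2 and the sterol carrier Stard4 did not pass in any comparison. Insig2 ranged from 0.379 to 14.4 FPKM within Control alone, so its values place no useful limit on a change.

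ATP citrate lyase (Acly, ENSMUSG00000020917, chromosome 11, 100476353 to 100528000) was the fatty acid enzyme that passed in both comparisons. Its FPKM was 44.5, 49.3, 41.8, 42.2 and 48.3 in Control, 69.5, 72.7, 96.8, 57.8 and 67.0 in Ang II, and with QDG added 48.3, 51.7, 53.9, 48.8 and 52.5. The Ang II mice were above all others. Acly rose by 0.66 (standard error 0.11, adjusted p = 0.00712) in Ang II vs. Control and fell by 0.48 on the log2 scale (standard error 0.11, adjusted p = 0.0371) with QDG added.

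**Figure D2:**
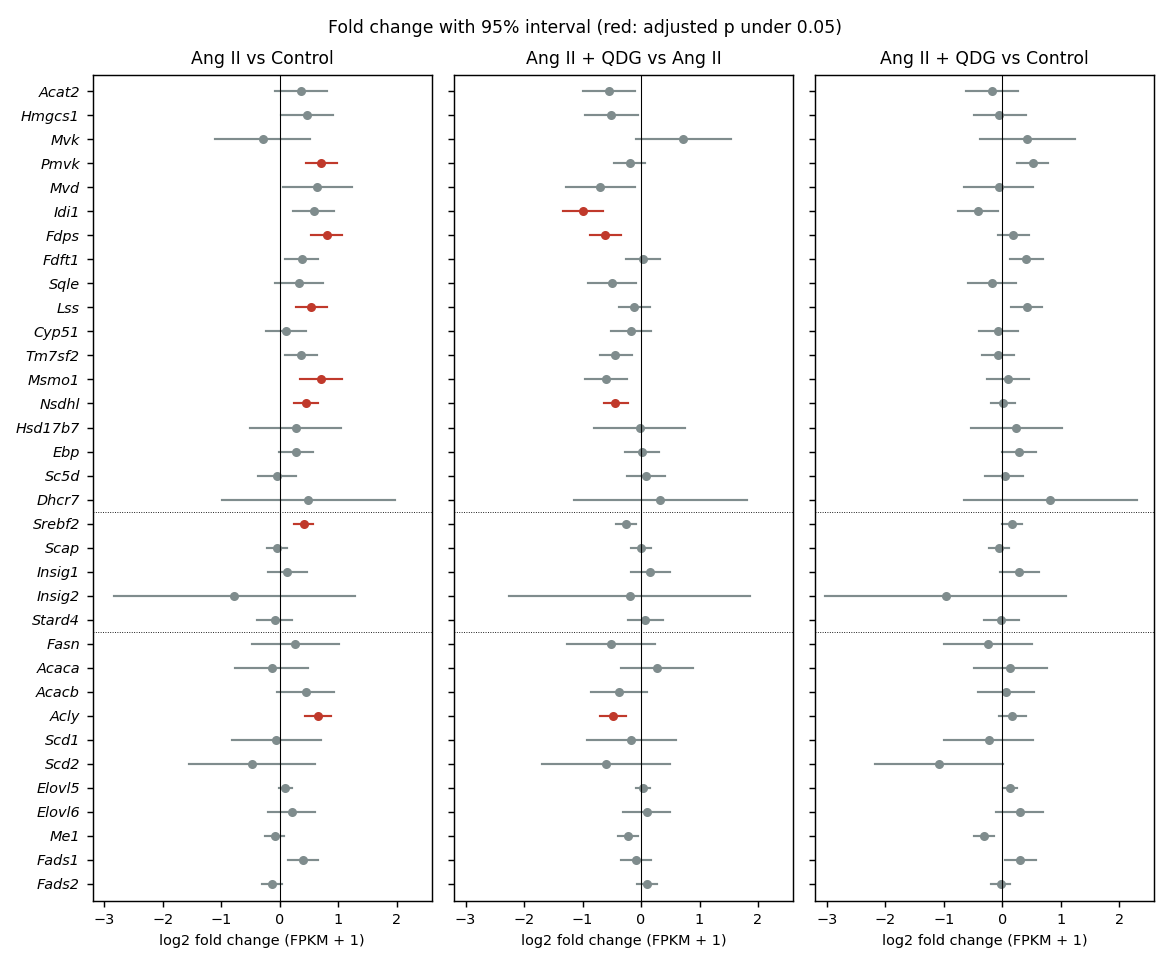
Difference in log2(FPKM + 1) (x axis) with its 95% interval for each of the 34 genes (y axis, in pathway order, dotted lines between the 3 sets) in the 3 comparisons, red where the adjusted p was under 0.05. Red points lie right of 0 for 7 genes in the left panel and left of 0 for 4 in the middle panel, and no gene is red in the right panel.

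At an unadjusted p under 0.05, 13 of the 34 genes were higher in Ang II than in Control and 0 lower, against 17.9% and 4.83% of all genes tested, and 10 of the 13 were sterol enzymes. Under quantile normalization and under median scaling, 9 were higher and 2 lower, the lower ones being Fads2 and Me1 in both, against 9.55% and 10.6% of all genes by quantile normalization and 9.22% and 10.7% by median scaling. With QDG added, 12 were lower than in Ang II at that level and 0 higher, against 10.4% and 6.01%, and 9 of the 12 were sterol enzymes. In 8 of the 34 genes every Ang II mouse exceeded every Control mouse, against 6.49% of all genes, and in 0 was every Ang II mouse below, against 1.42%. In 4 genes every Ang II + QDG mouse was below every Ang II mouse, against 3.44%, and in 0 above, against 1.56%. The genes that met only the unadjusted level are given next, and none of them passed the adjustment.

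Acetyl-CoA acetyltransferase (Acat2) and HMG-CoA synthase (Hmgcs1) stand at the head of the pathway and had the highest mean levels of the sterol enzymes. Acat2 had 57.7, 61.6, 64.7, 76.7 and 45.2 FPKM in Control, 68.4, 81.5, 124.6, 48.6 and 85.1 in Ang II, and with QDG added 59.1, 45.2, 46.8, 66.8 and 51.3. Hmgcs1 had 109.4, 110.2, 120.0, 172.5 and 96.5 FPKM in Control, 129.6, 194.2, 165.6, 176.0 and 164.3 in Ang II, and with QDG added 106.9, 69.8, 140.2, 116.8 and 168.1. All 3 groups overlapped for both genes. Between Ang II + QDG and Ang II the log2 fold change was −0.54 for Acat2 (adjusted p = 0.203) and −0.51 for Hmgcs1 (adjusted p = 0.234), and for Hmgcs1 it was 0.46 between Ang II and Control (adjusted p = 0.203).

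Mevalonate diphosphate decarboxylase (Mvd) had 6.34, 6.93, 10.2, 5.77 and 10.6 FPKM in Control, 11.2, 11.2, 14.6, 11.6 and 15.2 in Ang II, and with QDG added 13.7, 4.86, 3.64, 10.6 and 8.14. Its Ang II mice were all above Control, and the Ang II + QDG mice spread more widely than either. The log2 fold change was 0.64 (adjusted p = 0.182) in Ang II vs. Control and −0.70 (adjusted p = 0.213) with QDG added. Squalene synthase (Fdft1), the first enzyme committed to sterols, had 11.3, 6.47, 9.47, 10.3 and 8.86 FPKM in Control, 12, 12, 10.8, 10.7 and 15.8 in Ang II, and with QDG added 11.5, 14.6, 13.1, 11.9 and 11.6. Both Ang II groups had higher means than Control, and every Ang II + QDG mouse was above every Control mouse. Its log2 fold change was 0.38 (adjusted p = 0.107) in Ang II vs. Control and 0.41 (adjusted p = 0.18) for Ang II + QDG against Control. Exons of Fdft1 share 774 bases with Ctsb on the opposite strand, and these reads cannot be told apart.

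Squalene epoxidase (Sqle), an oxygen-dependent step, had 30.5, 37.1, 23.7, 30.4 and 20.7 FPKM in Control, 44.9, 21.8, 47.3, 31.2 and 36.4 in Ang II, and with QDG added 22.9, 23.7, 28.1, 24.9 and 23.3. The log2 fold change in Ang II + QDG vs. Ang II was −0.50 (adjusted p = 0.202), with Ang II mouse 2 below all mice of the QDG group. The sterol reductase Tm7sf2 had 4.69, 6.26, 5.78, 7.12 and 5.93 FPKM in Control, 7.3, 8.68, 8.27, 6.64 and 8.83 in Ang II, and with QDG added 7.19, 6.61, 4.43, 4.68 and 5.37. Its log2 fold changes were 0.37 (adjusted p = 0.109) in Ang II vs. Control and −0.44 (adjusted p = 0.0983) with QDG added, with groups that overlapped in both, and its exons share 532 bases with Vps51 on the same strand. The remaining sterol enzymes, Mvk, Cyp51, Hsd17b7, Ebp, Sc5d and Dhcr7, had log2 fold changes from −0.29 to 0.49 in Ang II vs. Control and from −0.17 to 0.72 when QDG was added.

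**Figure D3:**
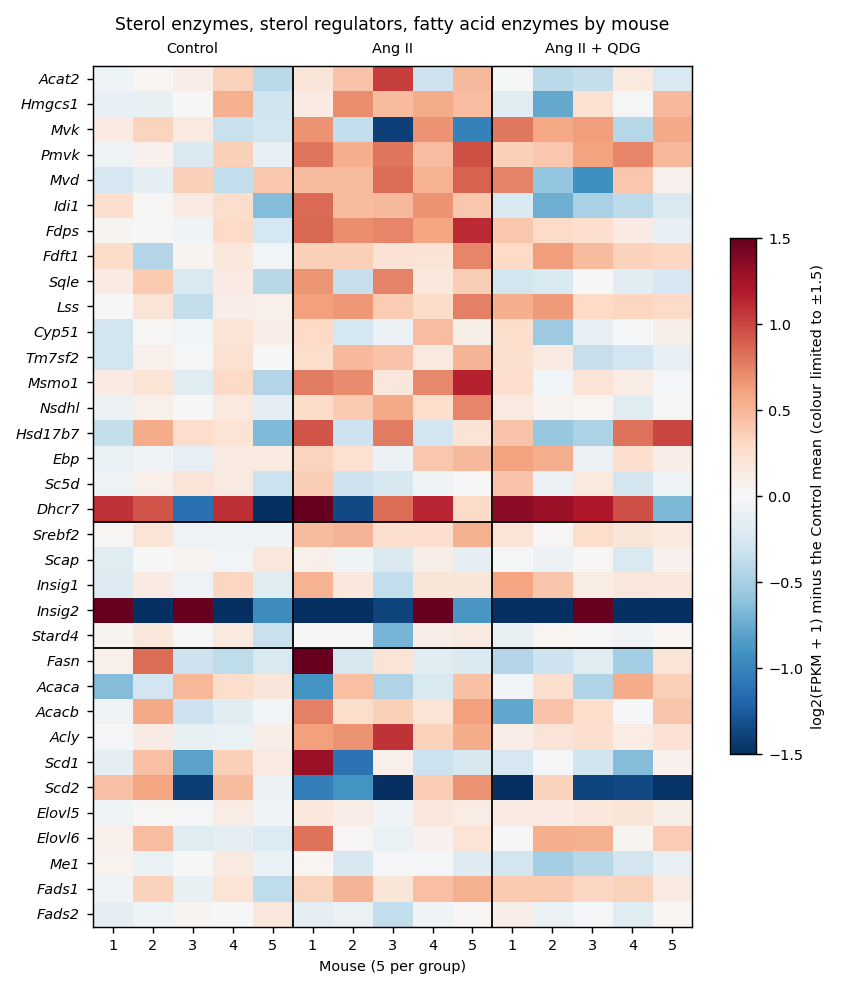
Log2(FPKM + 1) of the 34 genes (rows, in pathway order, lines between the 3 sets) in 15 mice (columns), minus the gene's Control mean, with colour limited to ±1.5. Red cells are more frequent among the sterol enzymes of the Ang II mice, and Dhcr7, Insig2, Fasn and Scd2 vary widely between mice of the same group.

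Of the fatty acid enzymes, malic enzyme (Me1), a source of NADPH for synthesis, had the highest mean level of the 34 genes. It had 181.4, 162.9, 175.7, 192.0 and 162.7 FPKM in Control, 177.8, 147.1, 171.5, 170.7 and 152.6 in Ang II, and with QDG added 144.4, 122.3, 130.3, 144.3 and 160.2. Every Ang II + QDG mouse was below every Control mouse, with a log2 fold change of −0.32 (95% interval −0.49 to −0.15, adjusted p = 0.106). The desaturase Fads1 had 21, 27.9, 20, 25.1 and 16.4 FPKM in Control, 27.6, 31.3, 24.7, 30.0 and 31.9 in Ang II, and with QDG added 28.8, 28.8, 27.1, 27.8 and 23.7. Its log2 fold change in Ang II vs. Control was 0.40 (adjusted p = 0.0651), and the 2 groups overlapped.

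The elongase Elovl5, which lengthens polyunsaturated fatty acids, had 22.6, 24.0, 23.2, 25.7 and 22.8 FPKM in Control, 26.4, 25.3, 22.7, 26.7 and 25.7 in Ang II, and with QDG added 25.9, 25.8, 26.6, 27 and 25.1. It varied little, and its log2 fold change in Ang II + QDG vs. Control was 0.13 (adjusted p = 0.284). The desaturase Fads2 was next to Me1 in mean level among the fatty acid enzymes. Its FPKM was 67.2, 70.8, 76.6, 73.7 and 83.4 in Control, 67.0, 69.0, 57.1, 70.8 and 75.2 in Ang II, and with QDG added 79.5, 69.3, 73.2, 65.1 and 75.7, with overlap among all groups. Fatty acid synthase (Fasn), the acetyl-CoA carboxylases Acaca and Acacb, the desaturases Scd1 and Scd2, and Elovl6 did not pass in any comparison, with log2 fold changes from −0.48 to 0.44 in Ang II vs. Control and from −0.60 to 0.27 between Ang II + QDG and Ang II. Between Ang II + QDG and Control they ran from −1.08 to 0.30, with Scd2 lowest (95% interval −2.17 to 0.01, adjusted p = 0.351).

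Between Ang II + QDG and Control, 0 of the 34 genes passed the adjustment in limma, where 0.097% of all genes rose and 0.0323% fell. At an unadjusted p under 0.05, 5 were higher and 2 lower, against 10.7% and 3.72% of all genes tested. The groups did not overlap for Pmvk, Lss and Fdft1, which were higher, and Me1, which was lower, against 2.78% and 0.857% of all genes. Idi1 was the other gene that was lower at the unadjusted level, with a log2 fold change of −0.42 (adjusted p = 0.265).

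In the comparison of Ang II + QDG with Ang II, Idi1 passed with any 1 mouse left out (log2 fold change −1.04 to −0.91). The other called genes kept their direction in these single removals, with log2 fold changes of −0.66 to −0.53 for Fdps, −0.48 to −0.36 for Nsdhl and −0.56 to −0.38 for Acly. Without Ang II mouse 2 or 5, or without Ang II + QDG mouse 2, 3, 4 or 5, 1 of the 4 genes still passed, which was Idi1. Acly also missed the threshold without Ang II mouse 1 or Ang II + QDG mouse 1, and Nsdhl without Control mouse 3 or Ang II mouse 3, and the adjusted p over all single removals reached 0.0601 for Fdps, 0.0807 for Nsdhl and 0.0841 for Acly. With the 3 mice richest in adipocyte markers left out together, 0 passed by limma with adjustment over all genes, and at the unadjusted level 11 were lower and 1, Mvk, higher. The log2 fold change was then −0.97 for Idi1 (adjusted p = 0.0669), −0.52 for Fdps (0.106), −0.48 for Nsdhl (0.0889) and −0.50 for Acly (0.104). With the adipocyte level as a covariate 3 of the 4 passed, and Acly did not (log2 fold change −0.48, adjusted p = 0.0519). In Ang II vs. Control, 5 to 8 genes passed when any 1 mouse was left out, and 6 without those 3 mice. Of the 7, 5 passed without the 3 mice, and so did Fads1 (log2 fold change 0.5, adjusted p = 0.0459). Lss (0.57, adjusted p = 0.0562) and Msmo1 (0.74, 0.0711) did not, with log2 fold changes of 0.54 and 0.71 over all mice. With the covariate 8 passed, the 7 and Idi1 (adjusted p = 0.0394). Lss no longer passed without Control mouse 1 or 3 or Ang II mouse 2 or 5 (adjusted p up to 0.0594), and Msmo1 without Control mouse 1, 3 or 5 or Ang II mouse 1, 2 or 5 (adjusted p up to 0.0678). Lss also missed the threshold with protein-coding transcripts alone (adjusted p = 0.0508), and with the 2 groups fitted alone both Lss (0.0546) and Msmo1 (0.0724) did, as did Fdps (0.0604), Nsdhl (0.0851) and Acly (0.0939) between Ang II + QDG and Ang II. Quantile normalization and median scaling ended the call of Nsdhl in Ang II vs. Control, and median scaling that of Msmo1, with the direction kept. Between Ang II + QDG and Ang II, both ended the calls of Nsdhl (adjusted p = 0.0645 and 0.0529) and Acly (0.0934 and 0.0529), again with the direction kept. After scaling to the FPKM outside the mitochondrial genome, 7 genes still passed in the first comparison, with a sterol enzyme median of 0.395 on the log2 scale. In the second, 3 of 4 passed and Acly did not (log2 fold change −0.47, adjusted p = 0.0589). Ang II mice 2 and 5 also stood apart in tubule markers. Slc12a1, the sodium transporter of the thick limb, was at 18.0 and 42.1 FPKM in them, against 163.4, 94.6 and 142.0 in the other Ang II mice. Slc12a3, the sodium transporter of the distal convoluted tubule, was higher in them, at 141.9 and 130.3 FPKM against 51.2, 84.0 and 54.1. The part of this in the calls was not tested.

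Some sums covered a change in transcript make-up between mice of the same group. For Acly, ENSMUST00000165111 held 16.136 FPKM in Ang II mouse 4 and 64.661 in Ang II mouse 2, while ENSMUST00000007131 held 21.618 and 0.098 in the same mice. For Fdps, ENSMUST00000196709 was listed at 0 in Control mice 1 and 3, Ang II mice 1 and 3, and Ang II + QDG mice 1, 3 and 4, and at 21.16 FPKM in Ang II mouse 5. The Acly sum ran from 57.8 to 96.8 FPKM in the 5 Ang II mice. In a fit of all transcripts, adjusted over those, the most abundant transcript of each gene was then taken instead of the sum. There 1 of the 34 genes passed in Ang II vs. Control, Pmvk, and 1 when QDG was added, Idi1. The adjustment changed along with the values. Nsdhl, with 1 listed transcript, kept its log2 fold change of 0.45 in Ang II vs. Control, while its adjusted p went from 0.0166 to 0.0556. In that fit the log2 fold change in Ang II vs. Control was 0.45 for Acly (adjusted p = 0.666) and 0.89 for Fdps (0.374). When QDG was added it was −0.13 for Acly (0.944), against −0.48 for the sum, and −0.44 for Fdps (0.78).

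**Figure D4:**
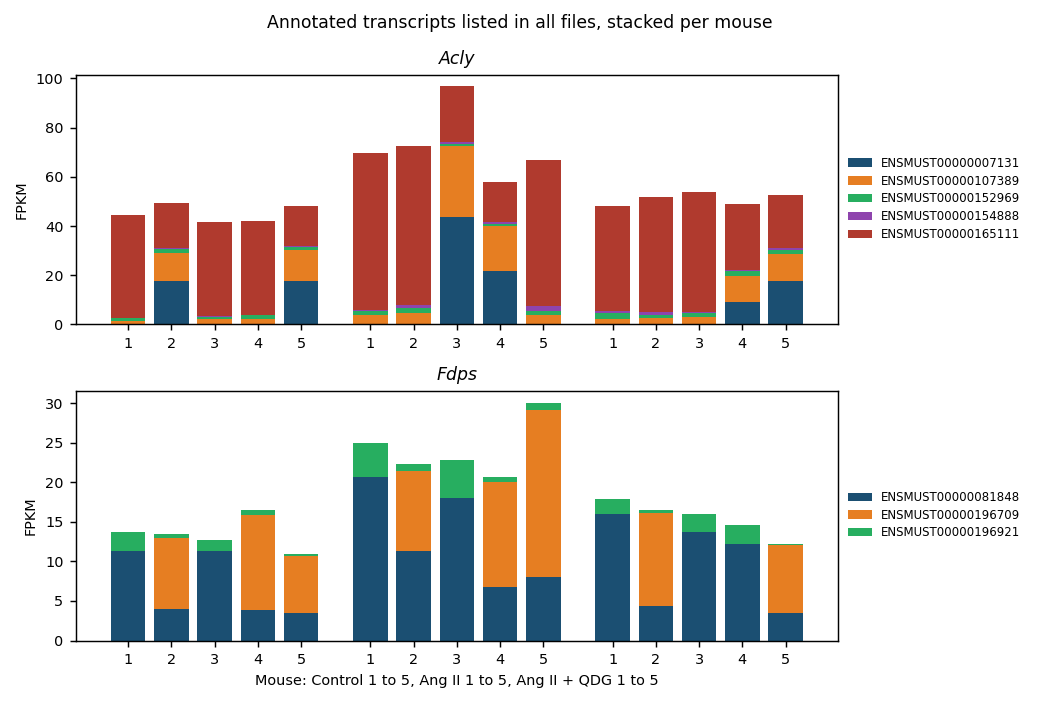
FPKM (y axis) of each annotated transcript listed in all files, stacked for Acly (top) and Fdps (bottom) in each of the 15 mice (x axis). The colours trade places between mice of the same group, while every Ang II stack is higher than every stack of the other groups.

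Some fatty acid enzymes were highest in the mice with the most adipocyte marker RNA, and the part of fat in these values was not tested. Fasn was at 38.9 FPKM in Ang II mouse 1 and 20.1 in Control mouse 2, against 7.34 to 12.6 FPKM in the other 13 mice. Scd1 was at 111.1 FPKM in Ang II mouse 1, against 20.3 to 47.2 in the other Ang II mice, and Elovl6 at 8.28 against 3.94 to 5.09. Fads2, at 67.0 FPKM in Ang II mouse 1, was within the range of its group. Of 6 adrenal cortex markers 1 was listed, Star, at 0.692 to 1.45 FPKM.

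**Figure D5:**
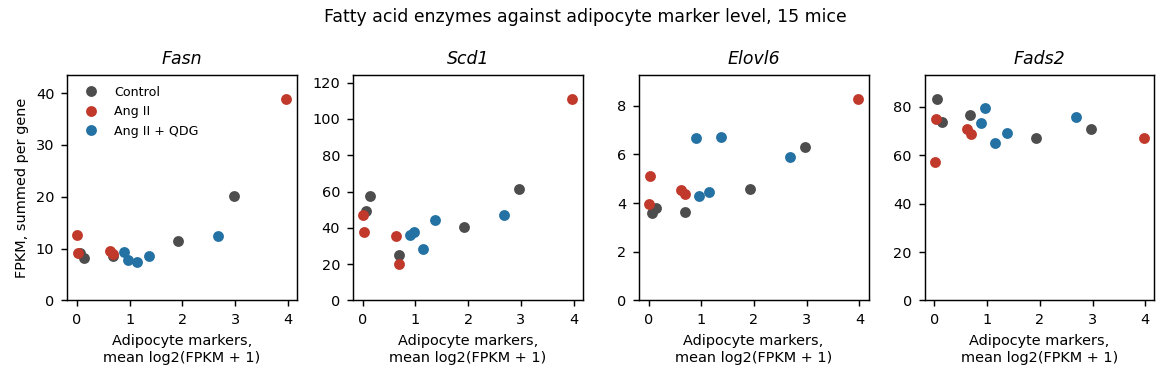
Summed FPKM (y axis, from 0) of 4 fatty acid enzymes against the mean log2(FPKM + 1) of the adipocyte markers (x axis) in 15 mice, coloured by group. Ang II mouse 1, at the far right, holds the highest Fasn, Scd1 and Elovl6, and its Fads2 of 67.0 FPKM lies among the other mice.

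Of 16 other genes of fatty acid synthesis, 14 were listed and tested, and 0 of the 14 passed the adjustment in limma in any comparison. At an unadjusted p under 0.05, 7 of the 14 were higher in Ang II than in Control, 3 were lower when QDG was added, and 1 was higher in Ang II + QDG than in Control, against the shares of all genes given above for that level. Their median log2 fold change was 0.177 in Ang II vs. Control and −0.167 with QDG added. Srebf1, which encodes the related factor that drives fatty acid synthesis, had a log2 fold change of −0.14 (95% interval −0.87 to 0.59, adjusted p = 0.85) between Ang II and Control.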

How the data were processed

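Renal RNA of 15 mice in 3 groups of 5 was sequenced paired-end after rRNA depletion and a poly(A) mRNA isolation step. The authors deposited 1 table of transcript values per mouse. The deposited values were taken as FPKM, although no source used here names the unit, because value times transcript length gave whole reads (within 0.05) for at least 98.45% of low values in every mouse. The labels name the build mm10 and limma. The aligner and quantifier are not given in the sources used here.

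FPKM were summed per gene over annotated transcripts (GENCODE mouse release 21, GRCm38) listed in all 15 files. Genes reaching 1 FPKM in 5 or more mice were fitted with limma 3.58.1 (R 4.3.3) on log2(FPKM + 1), as 1 model of all mice with a trend and 12 residual degrees of freedom, two-sided, with Benjamini-Hochberg adjustment over all 12372 genes. The pseudocount makes changes of low genes smaller. Depth is inferred from the values, and the reads counted may be fragments, as sequencing was paired-end. The labels do not say whether mice shared a batch. The fit was checked on simulated data. The kit is not stated to keep strand, and exons of 8 of the genes overlap a gene on the opposite strand, which cannot be told apart.

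The genes, lists and tests were chosen with earlier results of these data known. Values per mouse are given for genes with an adjusted or unadjusted p under 0.05 in any comparison and the 2 highest in each of 3 sets. Other fatty acid synthesis genes are counted, with Srebf1 named after its values were seen, and a list of further sterol pathway genes is not reported here. Alternatives covered the pseudocount, filter, scaling, transcripts summed, groups fitted and each mouse left out.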

Additional observations from a re-analysis of the deposited data

Results flagged for a closer look

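In 10 of the 102 sets of 5 mice (34 genes in 3 groups), the highest or lowest mouse stood far from the other 4 by Dixon's test at its 95% critical value, and chance marks about 1 in 20 sets. Low values were Mvk at 3.39 FPKM in Ang II + QDG mouse 4, against 7.79 to 9.25 in the others, and Stard4 at 13.4 in Ang II mouse 3, against 22.4 to 24.5. High values were Fdft1 at 15.8 FPKM in Ang II mouse 5, Insig2 at 14.9 in Ang II mouse 4 and at 11.2 in Ang II + QDG mouse 3, and Scd2 at 22.0 in Ang II + QDG mouse 2. The mice with the most adipocyte marker RNA gave Fasn at 20.1 FPKM and Acacb at 5.94 in Control mouse 2, and Fasn at 38.9 and Elovl6 at 8.28 in Ang II mouse 1. The part of the marker RNA in these values was not tested.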

How the results depend on the processing

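No paired analysis was possible because the labels number no mice, the numbers used here follow the order of the samples, and nothing ties equal numbers to a shared batch or litter. In Ang II vs. Control, 7 genes of the pathways passed, 1 with the most abundant transcript, and 5 to 8 with each mouse left out. Counts with the most abundant transcript, here and below, came from a fit of all transcripts. They were adjusted over those, so the adjustment changed along with the values. All genes tested gave 735 calls (612 higher, 123 lower), and 470 by median scaling (200 higher, 270 lower), 408 with protein-coding transcripts alone, 109 with the most abundant transcript, 456 with the 2 groups alone, 403 without the 3 adipocyte-rich mice, and 338 to 797 with each mouse left out. Quantile normalization gave 227 higher and 268 lower. With these scalings 6 (quantile) and 5 (median) genes of the pathways were still higher and 0 lower.

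In Ang II + QDG vs. Ang II, 4 genes of the pathways passed, 2 under quantile normalization, 2 under median scaling, 1 with the most abundant transcript, 1 with the 2 groups alone, 0 without the 3 adipocyte-rich mice, and 1 to 4 with each mouse left out. All genes gave 224 calls (65 higher, 159 lower), 97 higher and 97 lower under quantile normalization, 72 and 112 under median scaling, 19 with the most abundant transcript, 58 with the 2 groups alone, 27 without those 3 mice, and 53 to 249 with each mouse left out. In Ang II + QDG vs. Control, 7 genes were past the unadjusted level, and 5 to 11 with each mouse left out. All genes gave 16 calls, 80 with unlisted transcripts taken as 0, 6 with protein-coding transcripts alone, 3 with the most abundant transcript, 4 with the 2 groups alone, and 0 to 110 with each mouse left out. The cause of these shifts was not tested. Leaving out the 3 mice and using the adipocyte level as a covariate were chosen after seeing the data. Of the 11 calls of single genes, 30 of 143 values under the alternatives and 32 of 165 with each mouse left out no longer passed.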
